A study of Mus musculus with 10 samples.

Results

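Measured here were 10 genes of fatty acid oxidation and aldehyde clearance (Scp2, Acad11, Aldh2, Cpt1a, Cpt2, Acadl, Acadm, Hadha, Hadhb and Acaa2) in single-cell RNA-seq of mouse embryonic back skin. The members were chosen by gene symbol, and all 10 were found among the 27998 genes listed at E16.5 and the 32285 listed at E15.5 and E17.5. The 10 libraries comprised, at E15.5, control replicates 2 and 3 and MOF cKO replicates 5 and 6, at E16.5, replicates 1 and 2 of control and of MOF cKO, and at E17.5, a single control and a single QPC cKO. The MOF cKO genotype combined MOF fl/fl with K14Cre and the QPC cKO genotype combined QPC fl/fl with K14Cre, on a mixed C57Bl/6J and CD-1 background, and controls were wild type or heterozygous littermates. The Krt14 promoter drives Cre in skin epithelium, so fibroblasts of a cKO embryo are cells in which the transgene is not meant to act. MOF cKO replicate 6 was a mosaic by the study's own staining of the acetylation mark, so results at E15.5 are also given without it. The stages used 3′ v3.1 (E15.5), v2 (E16.5) and v3 (E17.5) chemistries, so stage and chemistry cannot be told apart. Nothing in the sources says whether libraries of a group came from separate litters, and p-values measure the spread between these libraries.

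Long-chain fatty acids enter mitochondria as carnitine esters made by CPT1A on the outer membrane, and CPT2 turns them back into acyl-CoA inside. Acyl-CoA dehydrogenases (ACADL for long, ACADM for medium and ACAD11 for very long and hydroxylated chains) then start each round of oxidation, and the trifunctional protein (HADHA and HADHB) and the thiolase ACAA2 complete it. SCP2 encodes a lipid carrier and a peroxisomal thiolase that shortens branched chains, and ALDH2 is the mitochondrial enzyme that oxidises acetaldehyde and the aldehydes left by lipid peroxidation. MOF is the histone acetyltransferase that places the acetyl group on lysine 16 of histone H4, and QPC (Uqcrq) is a subunit of respiratory complex III, which takes electrons from oxidation upstream. Skin cells use fatty acids both as fuel and as building blocks of the barrier lipids that differentiating keratinocytes make.

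The members lie on 7 chromosomes of GRCm38 (mm10). Scp2 is at chr4:108043839-108144998 (minus strand) and Cpt2 close by at chr4:107903981-107923610 (minus). Hadha, chr5:30118304-30155162 (minus), and Hadhb, chr5:30155248-30184593 (plus), are transcribed away from each other from starts 86 bases apart, and Aldh2 is at chr5:121566027-121593824 (minus). Acadl is at chr1:66830839-66863277 (minus), Acadm at chr3:153922357-153944632 (minus), Acad11 at chr9:104063377-104127725 (plus) and Cpt1a at chr19:3322334-3385733 (plus). The RefSeq table of GRCm38.p6 promoters held 8 of the 10 members (not Aldh2 or Acaa2). Printed here are the 250 bases before the RefSeq start of Scp2 and of Acadm, the pair of members whose levels were most alike across the samples, and the stretch between the Hadha and Hadhb starts. The Scp2 start used by RefSeq lies inside the longer GENCODE gene. Capitals mark matches on either strand to 5 motifs. The GC box is searched as GGGCGG and the CCAAT box as its own letters. The half-site of nuclear receptors is searched as AGGTCA and the longer half-site of ERR receptors, which contains it, as AAGGTCA. The core of the NRF1 motif is searched as GCATGCGC.
Scp2, chr4:108118548-108118797, minus strand: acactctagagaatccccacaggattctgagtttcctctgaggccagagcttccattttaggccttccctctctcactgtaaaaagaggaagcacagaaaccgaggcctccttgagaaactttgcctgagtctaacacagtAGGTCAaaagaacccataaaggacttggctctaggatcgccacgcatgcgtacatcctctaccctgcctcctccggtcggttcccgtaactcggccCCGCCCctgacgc
Acadm, chr3:153944644-153944893, minus strand: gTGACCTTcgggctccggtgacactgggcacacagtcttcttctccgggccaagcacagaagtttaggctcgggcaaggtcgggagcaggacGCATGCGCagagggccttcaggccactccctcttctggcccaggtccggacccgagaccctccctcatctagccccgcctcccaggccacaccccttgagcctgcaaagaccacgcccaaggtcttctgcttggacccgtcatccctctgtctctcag
Hadha to Hadhb, chr5:30155163-30155247, plus strand: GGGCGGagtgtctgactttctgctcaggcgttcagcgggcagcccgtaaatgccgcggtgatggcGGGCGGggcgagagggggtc
The GC box was in 7 of the 8 promoter windows and in 32.7% of all 32851 windows of this length. The nuclear receptor half-site was in 3 of the 8 (14.02% of all), in Scp2, Acadm and Cpt1a. The ERR half-site (4.08% of all) and the NRF1 core (2.26% of all) were each in 1 of the 8, both in Acadm, and the CCAAT box was in 2 of the 8 (33.8% of all), in Acad11 and Cpt1a. The 85 bases between Hadha and Hadhb held 2 GC boxes, a motif found at least once in 22.8% of windows of that length. These are matches of letters only.

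UMIs were summed per library in basal keratinocytes (at least 10 Krt5 and Krt14 UMIs, under 10 of Krt1 and Krt10), suprabasal keratinocytes (at least 20 Krt1 and Krt10 UMIs) and fibroblasts (at least 30 Col1a1 and Col3a1 UMIs, under 10 of Krt5 and Krt14), and are given per 1000000 UMIs of that sum (CPM). The sums held 360839 to 66188326 UMIs in basal, 192632 to 8264494 in suprabasal and 6757249 to 96779376 in fibroblast cells. At E16.5 the MOF cKO sums rested on 21 and 22 basal cells and on 9 and 13 suprabasal cells. All 8 basal keratinocyte markers were detected in basal cells of every library and all 8 dermal markers in fibroblasts, but their levels differed. These marker lists leave out the genes that define the compartments. The 8 basal keratinocyte markers summed to 2723 to 4604 CPM in basal cells of the controls and to 1534 and 3249 CPM (E15.5) and 826 and 1446 CPM (E16.5) in MOF cKO. Of the basal cells, 62.6% in the E17.5 control, 40.2% in E16.5 control replicate 1 and 59.1% in E16.5 MOF cKO replicate 2 had 10 or more collagen UMIs, against 7.29% to 28.6% in the other 7 libraries, so values without such cells are given where a result rests on them. In the 3 compartments blood cell markers summed to 2.87 to 33756 CPM. At most 36 kept barcodes were shared by any 2 libraries.

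The targeted genes were read first. Kat8, which encodes MOF, had 13.02 and 13.7 CPM in basal cells of the E15.5 controls and 13.4 and 10.3 CPM in MOF cKO replicates 5 and 6, so those groups overlapped. At E16.5 Kat8 had 16.4 and 14.9 CPM in controls and 8.31 and 4.51 CPM (3 and 2 UMIs) in MOF cKO. In suprabasal cells it had 12.2 and 14.6 CPM in E15.5 controls and 9.53 and 8.70 CPM in MOF cKO, and 24.1 and 14.5 against 10.4 and 3.43 CPM at E16.5. In fibroblasts Kat8 had 9.18 and 9.62 CPM in E15.5 controls and 6.83 and 5.98 CPM in MOF cKO, and 9.60 and 8.23 CPM in E16.5 controls and 2.81 and 5.39 CPM in MOF cKO. Kat8 was thus lower in every MOF cKO library than in both controls of its stage in fibroblasts, the cells in which Cre is not meant to act, and in suprabasal cells, while in basal cells it was so at E16.5. These 3′ tags read the end of the transcript, and where the deleted part lies is not given in the sources used here, so the level of Kat8 does not check the labels. Uqcrq had 103 CPM in E17.5 control basal cells and 45.7 in QPC cKO, 144 against 27.8 in suprabasal cells, and 69.4 against 122 in fibroblasts.

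In basal cells of control skin Aldh2, Acaa2 and Scp2 were the members with the most UMIs, and the carnitine transferases had the fewest. Over the 5 control libraries the level in basal cells was 209 ± 30.1 CPM (SD, n = 5) for Aldh2, 138 ± 26.99 for Acaa2 and 129 ± 16.0 for Scp2. The ranges of Acaa2 and Scp2 overlapped, from 93.8 to 161 CPM and from 114 to 146 CPM, and Aldh2 lay above both, from 180.1 to 245 CPM. Hadha (82.6 ± 18.7 CPM) and Hadhb (78.3 ± 9.43 CPM), the 2 subunits of one enzyme, came next. Their order turned with stage, and with it chemistry. Hadha was above Hadhb at E15.5 (97.4 and 92.7 against 70.5 and 68.3 CPM) and E17.5 (97.2 against 82.9 CPM). At E16.5 it was below (69.4 and 56.5 against 91.5 and 78.3 CPM). Acadm had 43.7 ± 3.003 CPM, Acadl 27.2 ± 18.3 CPM and Acad11 17.8 ± 3.62 CPM. Cpt2 had 7.69 ± 2.12 CPM and Cpt1a 4.46 ± 3.498 CPM. The E17.5 control, where collagen-bearing basal cells were most frequent, had the highest Acadl (51.9 CPM) and Cpt1a (10.3 CPM) and the lowest Acaa2 (93.8 CPM). In its basal cells with under 10 collagen UMIs these were 30.3, 5.15 and 121 CPM. Scp2 had 161 CPM in those cells of the E17.5 control, and 180.5 and 148 CPM in E16.5 control replicates 1 and 2. These lay above its range over all basal cells, so the level of Scp2 given here depends on the collagen-bearing cells kept. A 3′ UMI count does not grow with transcript length, so these levels can be set beside each other, though capture at each 3′ end may differ.

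**Figure D1:**
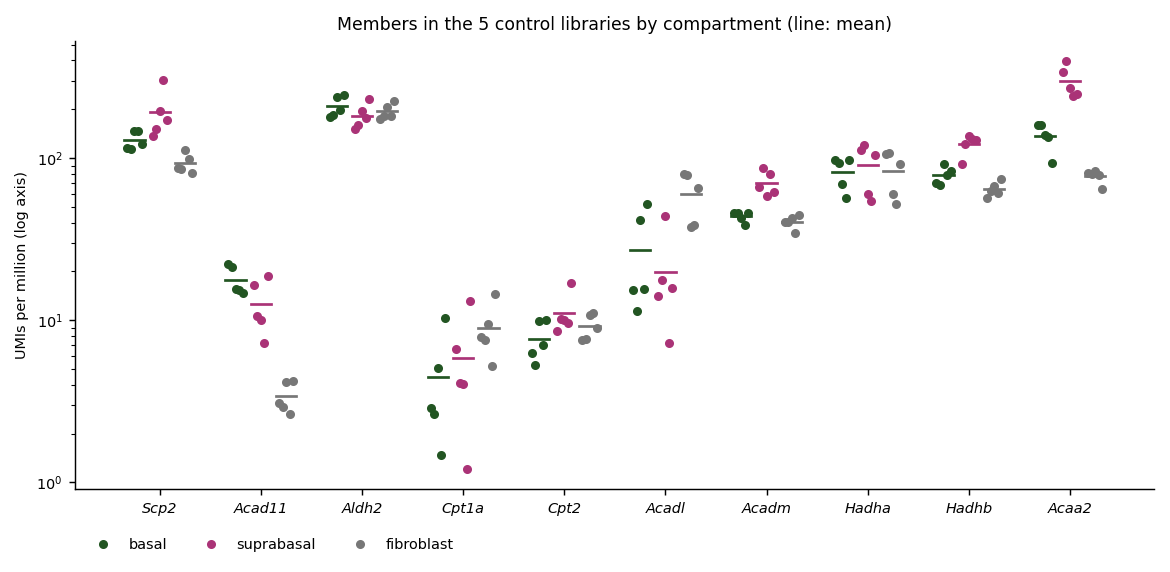
Level of each member (x axis) in CPM on a log axis (y axis) in basal, suprabasal and fibroblast cells of the 5 control libraries; a point is a library and a line the mean. Acaa2 lies at 241 to 396 CPM in suprabasal cells, above its 93.8 to 161 CPM in basal cells and 64.1 to 83.3 CPM in fibroblasts, and Acad11 lies lowest in fibroblasts.

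Of the 10 members, 5 were higher in suprabasal than in basal cells of the controls and 0 were lower (edgeR's quasi-likelihood test with the library as a block, Benjamini-Hochberg adjusted p under 0.05 over all genes). The background was 14.9% of 12753 genes called higher and 14.6% called lower. Acaa2 (chr18:74779197-74806208, plus strand), the last enzyme of the mitochondrial spiral, had 299 ± 66.7 CPM (SD, n = 5) in suprabasal cells and rose in all 5 libraries, by 1.26 ± 0.11 (SE) on the log2 scale (adjusted p = 0.000287). Acadm rose by 0.82 ± 0.13 (adjusted p = 0.00303), to 70.6 ± 12.3 CPM, and Hadhb by 0.77 ± 0.10 (adjusted p = 0.00177), to 122 ± 17.6 CPM. Hadha, the partner subunit of Hadhb, had 90.5 ± 30.8 CPM and was not called (log2 change 0.25 ± 0.10, adjusted p = 0.101), though doubled compartment minimums gave 0.30 (adjusted p = 0.0312). Cpt1a had 5.84 ± 4.56 CPM and was not called either (log2 change 0.65 ± 0.29, adjusted p = 0.124), but it was with doubled minimums (1.21, adjusted p = 0.00934) and without collagen-bearing keratinocytes (1.09, adjusted p = 0.0109). Scp2 rose by 0.66 ± 0.13 (adjusted p = 0.00999) and was at 136, 151, 172, 195 and 305 CPM in the 5 suprabasal sums. Cpt2 rose by 0.73 ± 0.20 (adjusted p = 0.0282), to 11.1 ± 3.38 CPM, a call that was lost without E15.5 control replicate 2 (adjusted p = 0.068), E15.5 control replicate 3 (0.126) or E16.5 control replicate 2 (0.053), and with library sizes alone (0.0562). Aldh2 was at 183 ± 31.9 CPM in suprabasal cells, below its basal level in all 5 libraries, with a log2 change of -0.06 ± 0.08 that was not called (adjusted p = 0.639). Acad11 had a log2 change of -0.36 ± 0.25 (adjusted p = 0.302), but it was called lower with doubled compartment minimums (-0.70, adjusted p = 0.00751), without collagen-bearing keratinocytes (-0.64, adjusted p = 0.00678) and without the E17.5 control (-0.67, adjusted p = 0.0214). Those fits called 7, 6 and 5 members higher and Acad11 alone lower, against 21.2%, 18.2% and 15.8% of genes higher and 21.3%, 24.2% and 15.8% lower.

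Fibroblasts carried more Acadl and Cpt1a than basal cells and less Acad11, Acaa2, Scp2 and Hadhb. In all, 7 members were called, 2 higher and 5 lower, against a background of 27.6% of 15767 genes higher and 27.9% lower. Acad11 showed the widest gap, 3.41 ± 0.73 CPM (SD, n = 5) in fibroblasts and a log2 change of -2.47 ± 0.25 (SE; edgeR adjusted p = 0.00104). Acadl had 60.1 ± 21.0 CPM in fibroblasts, a log2 change of 1.31 ± 0.44 (adjusted p = 0.043) that was not called without E15.5 control replicate 2 (adjusted p = 0.128), E15.5 control replicate 3 (0.106) or E16.5 control replicate 2 (0.104), with library sizes alone (0.0556) or with a mitochondrial limit of 5% (0.0734). Acadl was above its basal level in 4 of 5 libraries, and below it in E16.5 control replicate 1 (37.4 against 41.7 CPM). Cpt1a, the entry enzyme of the mitochondrial route, had 8.95 ± 3.49 CPM and rose in all 5 libraries (log2 change 1.16 ± 0.18, adjusted p = 0.00333). Acaa2 fell by 0.87 on the log2 scale (adjusted p = 0.00231), Scp2 by 0.53 (adjusted p = 0.00158) and Hadhb by 0.34 (adjusted p = 0.0109), each in 5 of 5 libraries. Aldh2 had 194 ± 21.1 CPM and fell by 0.15 on the log2 scale (adjusted p = 0.0486), a call that no fit without 1 library kept and that was also lost with DESeq2 (adjusted p = 0.12), library sizes alone (0.171), no filter on low counts (0.077) and a mitochondrial limit of 5% (0.264).

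At E15.5 no member was called between MOF cKO and control in basal cells, and the spread within MOF cKO was wide. Scp2 had 116 and 114 CPM in the controls, 34.9 CPM in MOF cKO replicate 5 and 97.3 CPM in replicate 6. Each MOF cKO sample was under each control, but replicate 6, the mosaic sample, lay far closer to them. Aldh2 had 180.1 and 185 CPM in controls and 85.7 and 167 CPM in MOF cKO. Acadm, the medium-chain dehydrogenase, had 45.6 and 45.7 CPM in controls and 28.0 and 40.4 CPM in MOF cKO. Hadha had 97.4 and 92.7 CPM in controls and 61.6 and 86.6 CPM in MOF cKO. These were the 4 members of 10 whose MOF cKO samples both lay below both controls, against 32.9% of the 14364 genes tested. For the other 6 the groups overlapped. Acaa2 had 161 and 159 CPM in controls and 117 and 161 CPM in MOF cKO, Hadhb 70.5 and 68.3 against 52.1 and 78.6 CPM, and Acad11 22.2 and 21.3 against 9.64 and 22.2 CPM. Acadl had 15.4 and 11.4 CPM in controls and 21.2 and 12.1 CPM in MOF cKO, the only one of the 10 above both controls in replicate 5. Cpt2 had 6.27 and 5.28 against 1.66 and 5.63 CPM, and Cpt1a 2.86 and 2.64 against 2.78 and 2.85 CPM.

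In the test of these 4 libraries edgeR called 0 of 10 members (0 with an unadjusted p under 0.05; DESeq2 called 0) and 0% of the 14364 genes. The log2 change was -0.71 ± 0.38 (SE) for Scp2 (adjusted p = 0.508) and -0.43 ± 0.23 for Aldh2 (adjusted p = 0.508). Without MOF cKO replicate 6, with replicate 5 as the only MOF cKO sample and its spread taken from the controls, 6 members were called lower against 26.8% of 15213 genes, and 1 was called higher against 22.6%. Those lower were Scp2 (log2 change -1.43), Cpt2 (-1.50), Acad11 (-0.88), Aldh2 (-0.80), Acadm (-0.41) and Hadha (-0.33), and the one higher was Acadl (0.97). No other left-out library gave a call among the members.

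**Figure D2:**
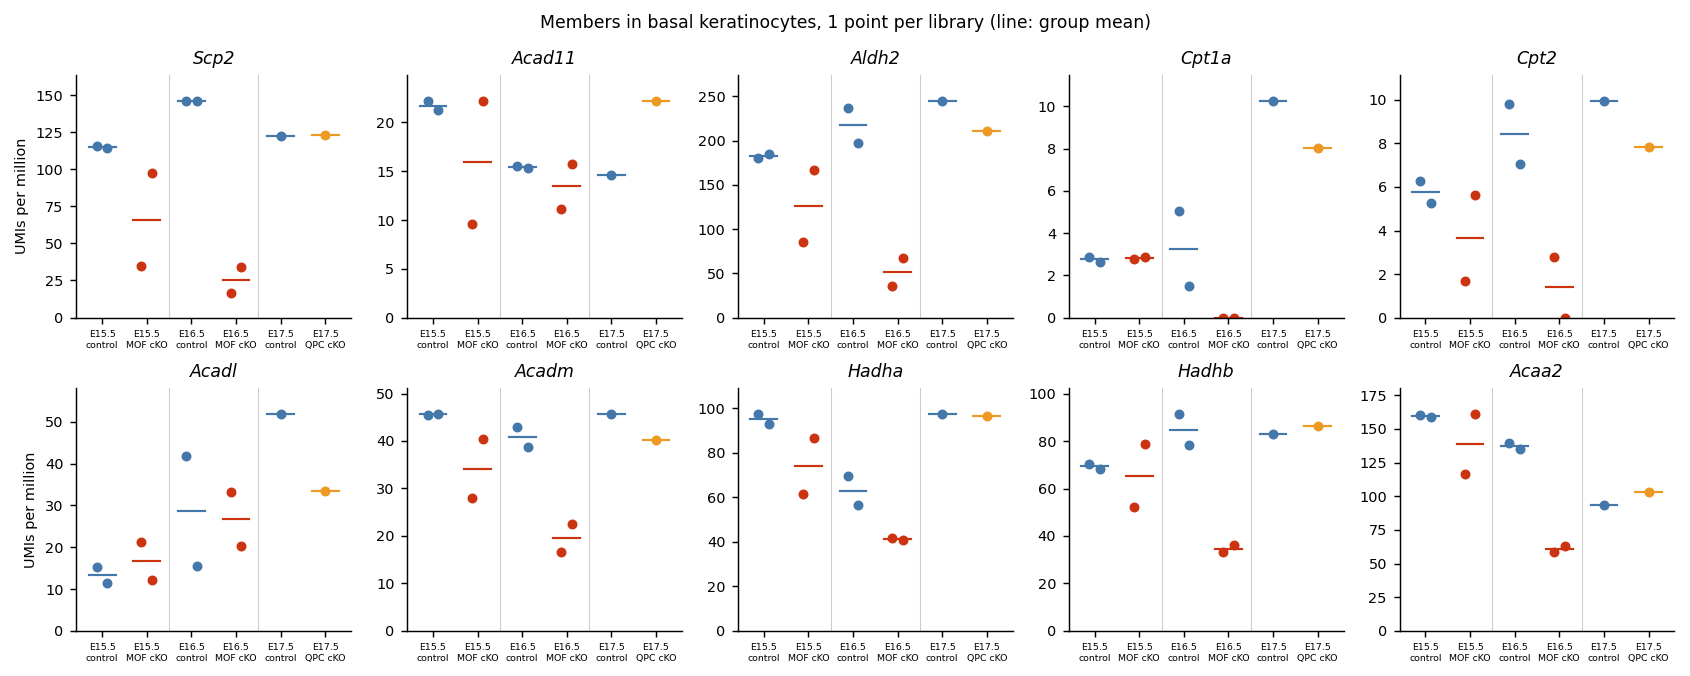
Level of each of the 10 members in basal keratinocytes (y axes, CPM, each from 0) by stage and group (x axes); a point is a library and a line the group mean. Scp2, Aldh2, Acadm and Hadha lie below both controls in all 4 MOF cKO libraries, MOF cKO replicate 6 is the right-hand point of its group, and at E17.5 each group is a single library.

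At E16.5 the members were lower in basal cells of both MOF cKO samples for 7 of the 9 that could be tested, against 51.5% of 9454 genes. Scp2 had 146 and 146 CPM in the controls and 16.6 and 33.8 CPM in MOF cKO (6 and 15 UMIs), 11.4% and 23.1% of the control mean. Aldh2 had 237 and 198 CPM in controls and 36.0 and 67.7 CPM in MOF cKO, 16.6% and 31.1% of the control mean. Both genes were far below both controls in each MOF cKO sample. Acaa2 had 139 and 135 CPM in controls and 58.2 and 63.2 CPM in MOF cKO. Hadhb had 91.5 and 78.3 CPM against 33.3 and 36.1, and its partner Hadha 69.4 and 56.5 against 41.6 and 40.6 CPM. Acadm had 42.9 and 38.8 CPM against 16.6 and 22.6 CPM. Cpt2 had 9.83 and 7.08 CPM in controls, 2.77 CPM (1 UMI) in MOF cKO replicate 1 and no UMI in replicate 2, where 3 UMIs would be 6.77 CPM. Acad11 (15.49 and 15.3 against 11.1 and 15.8 CPM) and Acadl (41.7 and 15.6 against 33.3 and 20.3 CPM) overlapped. Cpt1a was not tested: it had 5.07 and 1.47 CPM in controls and no UMI in either MOF cKO sum, where 3 UMIs would be 8.31 and 6.77 CPM, so a difference was not detectable at this depth.

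The scaling matters at this stage. With library sizes alone the median log2 change over all genes was -0.64, and with TMM factors it was -0.11, and changes below are relative to the latter. After TMM the log2 change was -2.01 ± 0.40 (SE) for Scp2 (edgeR adjusted p = 0.111), -1.54 ± 0.35 for Aldh2 (adjusted p = 0.127), -2.20 ± 1.13 for Cpt2 (adjusted p = 0.312), -0.78 ± 0.32 for Hadhb (adjusted p = 0.240), -0.67 ± 0.30 for Acaa2 (adjusted p = 0.267), -0.54 ± 0.38 for Acadm (adjusted p = 0.444) and -0.10 ± 0.32 for Hadha (adjusted p = 0.888). The other 2 members tested had changes above 0, 0.47 ± 0.56 for Acadl (edgeR adjusted p = 0.658) and 0.31 ± 0.47 for Acad11 (adjusted p = 0.731). The change of Cpt2 rested on 1 UMI and none in the MOF cKO sums. Leaving out 1 library moved it from -7.82 to -1.05. edgeR called 0 of 9 members and 0.243% of 9454 genes, an unadjusted p under 0.05 was seen for Scp2, Aldh2 and Hadhb, and DESeq2 called Scp2 and Aldh2. The share of all genes that DESeq2 called is not given here, so its calls have no background. In basal cells with under 10 collagen UMIs, Scp2 had 180.5 and 148 CPM in controls and 9.52 and 53.2 CPM in MOF cKO, and Aldh2 had 247 and 201 against 38.1 and 95.7 CPM, so each MOF cKO sample was again under each control. Those MOF cKO sums held 2 to 9 UMIs of each gene.

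With both stages in 1 model, edgeR called 0 of 10 members in basal cells and 0% of 12582 genes (unadjusted p under 0.05 for Scp2, Aldh2 and Acadm; DESeq2 called Scp2). The log2 change was -1.22 ± 0.33 (SE) for Scp2 (adjusted p = 0.237), -0.93 ± 0.27 for Aldh2 (adjusted p = 0.247) and -0.39 ± 0.18 for Acadm (adjusted p = 0.334). Without MOF cKO replicate 6, Scp2 (-1.71) and Aldh2 (-1.20) were called, as were 4.66% of genes in that direction. Of the 9 members tested at both stages, 4 (Scp2, Aldh2, Acadm and Hadha) lay below both controls in all 4 MOF cKO libraries, against 21.5% of 9357 genes. That count is of CPM without TMM factors. After TMM the log2 change of Hadha was -0.10 at E16.5 and -0.20 over both stages (not called). Of the 10 members, 9 had a fitted change below 0, with a median of -0.33 against -0.08 over all genes, and the exception was Acadl. The share of all genes below 0 was not counted, so this count has no background. The stage by genotype interaction was called for no member in basal cells, where 0.0152% of genes passed (Aldh2, -1.17 ± 0.42, adjusted p = 0.375, and Hadhb, -0.88 ± 0.31, adjusted p = 0.368, had an unadjusted p under 0.05). No member's interaction was called in suprabasal cells (0.0401% of genes; only Scp2 at an unadjusted p under 0.05, adjusted p = 0.282) or in fibroblasts (1.26% of genes; no member at an unadjusted p under 0.05). DESeq2 called none of these interactions. In bulk sums of this kind fewer cells of a state and less RNA per cell cannot be told apart, and the basal keratinocyte markers, given above, were also lower in MOF cKO. Other markers moved in the E16.5 basal sums too. The 8 dermal markers summed to 5821 and 1790 CPM in controls and 618 and 1004 CPM in MOF cKO, with all 8 detected in each, and the 6 immune markers to 191 and 22.7 CPM in controls and 139 and 969.8 CPM in MOF cKO. The part of these markers in the results was not tested.

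In suprabasal cells the 10 members together had 942 and 1079 CPM in the E15.5 controls and 1101 and 1092 CPM in MOF cKO, and 983 and 1014 CPM in the E16.5 controls and 504 and 682 CPM in MOF cKO. Aldh2 was lower in both MOF cKO samples than in both controls at each stage: 151 and 160 CPM against 67.0 and 137 CPM at E15.5, and 195 and 178 CPM against 20.8 and 65.1 CPM at E16.5. It was the 1 member of 7 tested at both stages to do so in suprabasal cells, against 14.5% of 4188 genes, a share near the background. Scp2 was not lower at E15.5, with 136 and 151 CPM in controls and 145 and 162 CPM in MOF cKO, but at E16.5 it had 195 and 305 CPM against 57.1 and 78.8 CPM. In E16.5 suprabasal cells with under 10 collagen UMIs it had 256 and 281 against 98.5 and 135 CPM (8 and 11 UMIs in MOF cKO). Acadl, the long-chain dehydrogenase, went the other way. It had 14.2 and 17.8 CPM in E15.5 controls and 92.6 and 28.0 CPM in MOF cKO, and 44.2 and 7.26 CPM in E16.5 controls and 114 and 58.2 CPM in MOF cKO, above both controls in all 4 MOF cKO sums, as 1 of 7 members against 5.97% of 4188 genes. Acaa2 had 338 and 396 against 460 and 428 CPM at E15.5 and 269 and 241 against 77.9 and 229.5 CPM at E16.5.

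At E15.5, 3 of 10 members lay below both controls in suprabasal cells (Aldh2, Acad11 and Cpt2), against 21.8% of genes, and 3 lay above (Acadl, Hadhb and Acaa2), against 16.7%. At E16.5, 4 of 7 lay below (Scp2, Aldh2, Acadm and Acaa2), against 49.6%, and 1 (Acadl) above, against 16.1%. edgeR called no member at E15.5 (0% of 10819 genes; DESeq2 called Acadl, the one with unadjusted p under 0.05), at E16.5 (4.03% of 4266 genes; unadjusted p under 0.05 for Scp2, Aldh2 and Acadl, no call by DESeq2) or over both stages (0.128% of 9405 genes; unadjusted p under 0.05 for Aldh2 and Acadl, the latter called by DESeq2). The log2 change of Acadl over both stages was 2.18 ± 0.51 (SE, adjusted p = 0.123), and that of Aldh2 was -0.97 ± 0.31 (adjusted p = 0.253). Without MOF cKO replicate 6 both were called over both stages (3.87% of genes higher, 1.76% lower), and in keratinocytes with under 10 collagen UMIs Acadl was (0.993% of genes higher). In those cells Acadl had 11.5 and 16.4 CPM in E15.5 controls and 88.9 and 27.5 CPM in MOF cKO. At E16.5 it had 37.4 and 7.17 CPM in controls and 135 and 110.2 CPM in MOF cKO. These E16.5 values rested on 12 and 5 UMIs in controls and 11 and 9 UMIs in MOF cKO, the latter from 7 and 8 cells. At E15.5 alone, without replicate 6, Acadl (log2 change 2.75), Cpt1a (1.37) and Acaa2 (0.58) were called higher, against 9.06% of genes, and Aldh2 (-0.96) lower, against 6.43%. The composition of the suprabasal sums moved with the groups: the 8 basal keratinocyte markers had 4155 and 2692 CPM in E15.5 controls and 534 and 1815 CPM in MOF cKO, and the 8 suprabasal markers had 51258 and 42559 CPM in E16.5 controls and 17235 and 9007 CPM in MOF cKO. The median mitochondrial share of E16.5 suprabasal cells was 3.44% and 2.02% in controls (31 and 66 cells) and 0.081% and 0.069% in MOF cKO (9 and 13 cells). The part of these shifts in the values of Acadl, Aldh2, Scp2 and the lipid droplet gene Plin2 was not tested.

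**Figure D3:**
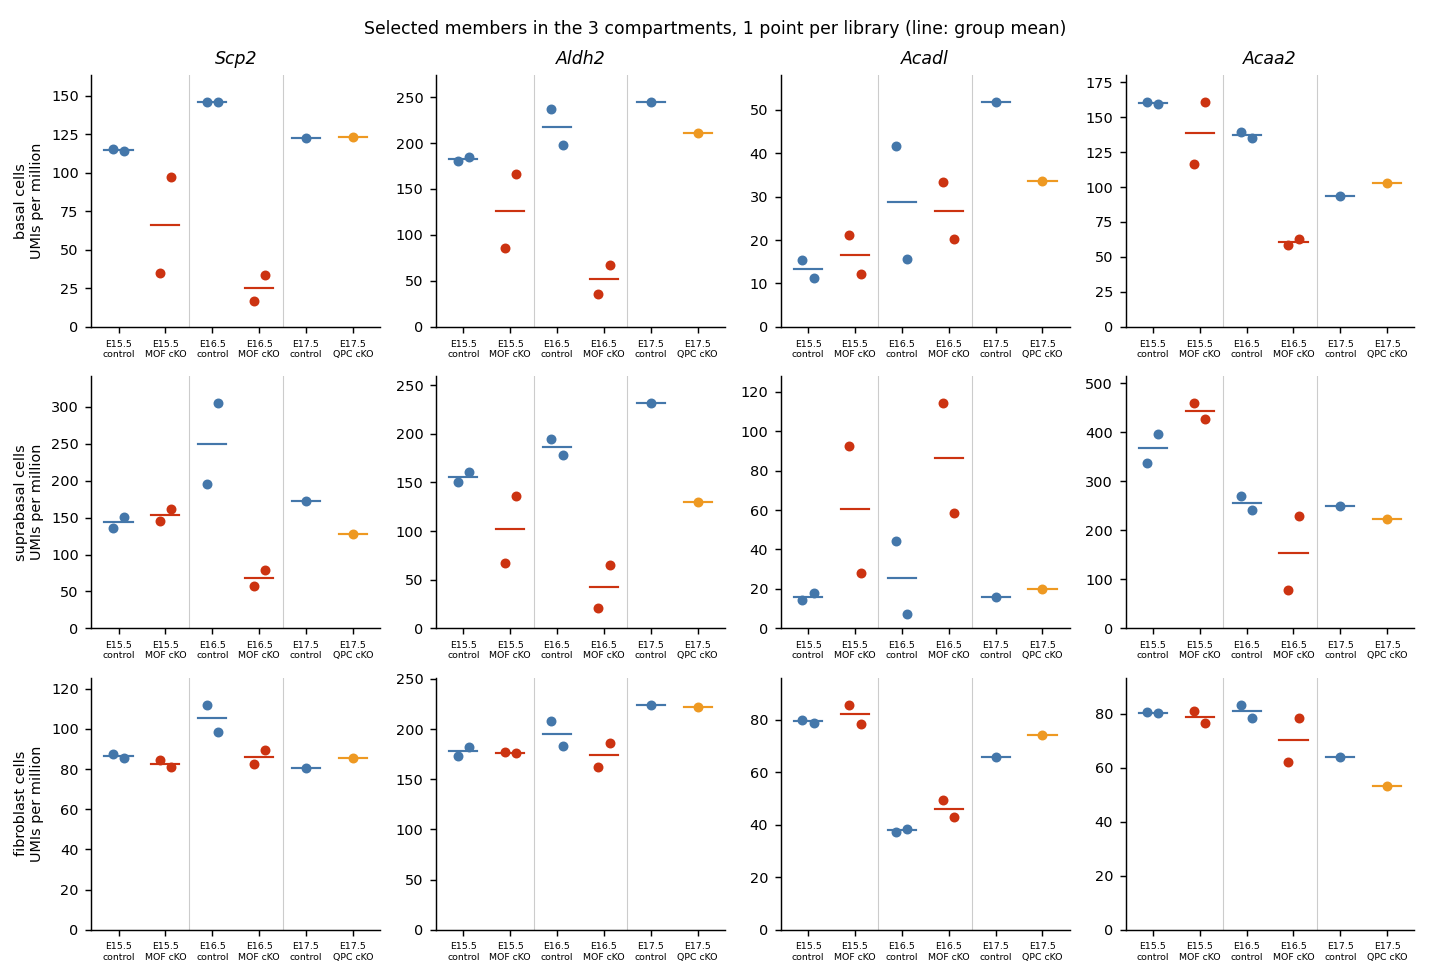
Scp2, Aldh2, Acadl and Acaa2 (columns) in basal, suprabasal and fibroblast cells (rows), in CPM from 0 (y axes) by stage and group (x axes); a point is a library and a line the group mean. Aldh2 is below both controls in every MOF cKO library in basal and suprabasal cells, and Acadl is above both controls in every MOF cKO library in suprabasal cells. In fibroblasts, where Kat8 was also lower in MOF cKO, Scp2 is below both controls in every MOF cKO library. There Aldh2 overlaps at both stages and Acadl is above both controls at E16.5.

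In fibroblasts the summed level of the members overlapped between groups at both stages, while single members lay apart. The sum was 643 and 655 CPM in E15.5 controls and 650.1 and 635 CPM in MOF cKO, and 635 and 564 CPM in E16.5 controls and 530.5 and 568 CPM in MOF cKO. Scp2 had 87.4 and 85.4 against 84.3 and 80.9 CPM at E15.5 and 112 and 98.4 against 82.4 and 89.7 CPM at E16.5. It thus lay below both controls at both stages, at 95.7% (E15.5) and 81.7% (E16.5) of the control mean. In fibroblasts it was the 1 member of 10 to do so, against 12.4% of 12380 genes. Aldh2 had 174 and 183 against 177 and 176 CPM at E15.5, and 208 and 183 against 162 and 186 CPM at E16.5. At E16.5 Acad11 stood at 55.3% and Hadhb at 78.2% of the control mean with both MOF cKO samples below both controls, Acadl at 122% with both above (1 of 10 members, against 18.1% of genes), and Cpt1a at 137% with overlap. At E15.5, 2 of 10 members lay below both controls (Scp2 and Hadha; 20.4% of genes) and 2 above (Cpt1a at 118% and Cpt2 at 112% of the control mean; 26.3% of genes), and at E16.5, 3 of 10 (Scp2, Acad11 and Hadhb; 35.8% of genes). edgeR called no member at E15.5 (0% of 16268 genes), at E16.5 (4.64% of 12569) or over both stages (0% of 14435), no member had an unadjusted p under 0.05, and DESeq2 called none. The difference between the genotype effect in basal cells and that in fibroblasts was itself tested. It was -1.12 ± 0.33 (SE) for Scp2 (edgeR adjusted p = 0.214), -0.86 ± 0.25 for Aldh2 (adjusted p = 0.222) and -1.03 ± 0.43 for Cpt2 (adjusted p = 0.302) on the log2 scale. None of the 10 was called, nor was any of 14734 genes (0%); these 3 had an unadjusted p under 0.05 and DESeq2 called none. Without MOF cKO replicate 6 all 3 were called lower in basal cells, as were 5.22% of genes.

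Other genes of the pathway were read from 6 lists. In basal cells over both stages edgeR called none of them in either direction, as it called no gene at all. Of 23 tested genes of mitochondrial beta-oxidation outside the members, 21 had a fitted change below 0, with a median log2 change of -0.62. Of 30 peroxisomal genes 26 did, with a median of -0.44, against a median of -0.08 over all genes. The share of all genes below 0 was not counted, so these counts have no background. The medians were -0.28 for 16 other aldehyde and alcohol dehydrogenases, -0.04 for 21 fatty acid synthesis genes, 0.10 for 18 uptake and activation genes and 0.11 for 16 PPAR and PGC-1 genes. The values of mitochondrial genes included -0.86 for Acadvl, the very-long-chain dehydrogenase (adjusted p = 0.237), -0.89 for Etfb, an electron acceptor of the dehydrogenases (adjusted p = 0.247), and -0.19 for Hadh, the short-chain hydroxyacyl-CoA dehydrogenase (edgeR adjusted p = 0.586), 3 genes chosen after their values were seen. In the MOF cKO comparisons of the 3 compartments 1 list gene was called, Plin2, which encodes a coat protein of lipid droplets, in suprabasal cells at E16.5. The 6 lists had 7, 13, 8, 5, 7 and 12 genes tested there, so 1 call among them lies below the 4.03% of all genes called. Plin2 had 4.02 and 6.05 CPM (2 and 5 UMIs) in controls and 26.0 and 140.5 CPM (5 and 41 UMIs) in MOF cKO, a log2 change of 4.42 ± 0.78 (SE, edgeR adjusted p = 0.0314).

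Between suprabasal and basal control cells the counts of list genes called are read against 14.9% of all genes higher and 14.6% lower. Of 23 other mitochondrial genes, 8 were higher and 1 lower, and 12 of 31 peroxisomal genes higher and 2 lower. Hadh had 88.6 ± 5.66 CPM (SD, n = 5) in basal and 219 ± 42.1 CPM in suprabasal cells, a log2 change of 1.44 ± 0.12 (SE, edgeR adjusted p = 0.000265). Acad9, an acyl-CoA dehydrogenase that also helps assemble complex I, rose by 1.95 ± 0.16 on the log2 scale (adjusted p = 0.000221). Of 21 fatty acid synthesis genes, 10 were higher and 1 lower, led by Elovl4, the elongase of ultra-long barrier fatty acids, at 1.46 ± 1.15 CPM in basal and 199 ± 76.1 CPM in suprabasal cells (adjusted p = 4.88e-05). Of 18 uptake and activation genes, 6 were higher and 3 lower, among them Acsl1, which activates long chains to acyl-CoA (8.82 ± 4.01 against 74.3 ± 15.9 CPM, adjusted p = 4.49e-05), and Fabp5, the epidermal fatty acid binding protein (1748 ± 1134 against 8669.9 ± 2972 CPM, adjusted p = 0.000275). Of 19 other aldehyde and alcohol dehydrogenases, 3 were higher, near the share over all genes, and 1 lower, and of 16 PPAR and PGC-1 genes 4 were higher and 4 lower. Fabp4, the fat cell form of the binding protein, fell in suprabasal cells, from 102 ± 123 CPM to 7.85 ± 10.4 CPM (edgeR adjusted p = 0.00211). Its basal SD exceeded its mean. Collagen-bearing cells were 62.6% of basal and 34.7% of suprabasal cells in the E17.5 control. The same shares were 40.2% and 19.4%, then 11.9% and 9.09%, in E16.5 control replicates 1 and 2. At E15.5 they were 7.29% and 8.84% in control replicate 2 and 7.43% and 6.65% in replicate 3. The part of such cells in the fall of Fabp4 was not tested. These list genes were named by the size of their change after the values were seen.

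**Figure D4:**
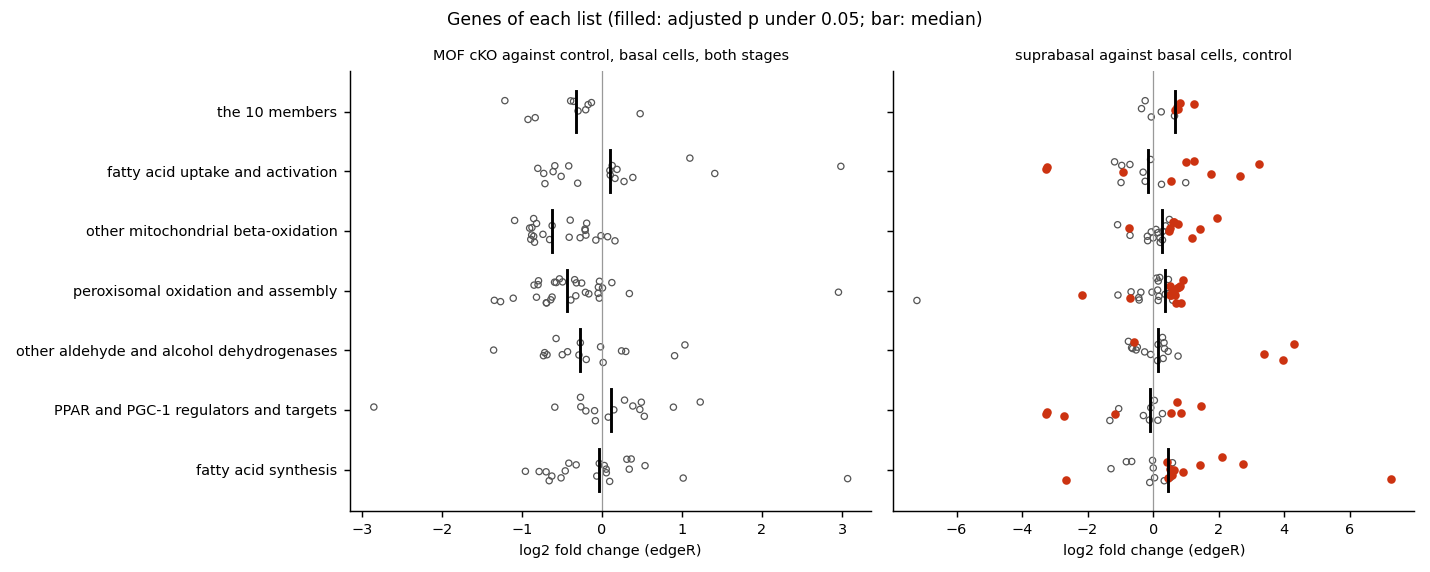
log2 fold change (x axis, edgeR) of each gene in the member list and 6 pathway lists (rows), for MOF cKO against control in basal cells over both stages (left) and for suprabasal against basal cells of controls (right); filled points passed an adjusted p of 0.05 and bars are medians. No point is filled on the left, where the bars of mitochondrial and peroxisomal oxidation lie at -0.62 and -0.44, and on the right 5 of the 10 members are filled, all above 0.

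Each group at E17.5 was a single library, so the values are set side by side with exact 95% Poisson intervals, which cover counting error only, and no test was made. In basal cells the 10 members together had 774 CPM in the control and 731 CPM in QPC cKO, a ratio of 0.945. In basal cells with under 10 collagen UMIs they had 860.3 and 741 CPM, a ratio of 0.861. Aldh2 had 245 CPM (241 to 248.9) in the control and 211 CPM (205 to 216) in QPC cKO, and 268 against 211 CPM in cells with under 10 collagen UMIs. Scp2 had 123 CPM in both, but 161 against 128 CPM in cells with under 10 collagen UMIs. Acadl had 51.9 against 33.5 CPM in all basal cells and 30.3 against 30.2 CPM in those with under 10 collagen UMIs, and Acad11 14.7 against 22.2 CPM and 23.7 against 23.6 CPM. For both, the levels were close together once the collagen-bearing cells were left out. In all basal cells the intervals of Scp2, Hadha and Hadhb overlapped and those of the other members were apart. Without the collagen-bearing cells those of Scp2, Aldh2, Acadm, Cpt2 and Acaa2 were apart, where the ratio was 0.797 for Scp2 and 0.788 for Aldh2. At this depth small differences part the intervals, as for Acaa2 at a ratio of 1.095 in all basal cells. The share of all genes with intervals apart was not counted, so these lists have no background. In all basal cells 1 of the 10 members with at least 100 UMIs (Acadl) was lower by 1.5-fold or more, against 20.9% of genes, and 1 (Acad11, ratio 1.51) higher, against 6.66%. Without the collagen-bearing cells none was past that fold, against 7.9% of genes lower and 2.91% higher.

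In suprabasal cells the sum was 1013 CPM in the control and 821 CPM in QPC cKO, a ratio of 0.811. Aldh2 had 232 CPM (218 to 245) in the control and 129.8 CPM (115 to 146) in QPC cKO, Scp2 172 CPM (161 to 184) against 128 CPM (113 to 145), and Acadm 61.4 CPM (54.7 to 68.7) against 40.7 CPM (32.5 to 50.3). The intervals of these 3 were apart, and those of the other 7 overlapped, Hadha at 105 against 112 CPM and Hadhb at 129 against 124 CPM among them. How many of all genes had intervals apart was not counted, so these numbers have no background. Of 6 members with at least 100 UMIs, 2 (Aldh2 and Acadm) were lower by 1.5-fold or more, against 5.95% of genes. Of the suprabasal cells, 34.7% in the control and 5.56% in QPC cKO had 10 or more collagen UMIs, and without them Aldh2 had 243 against 127 CPM, Acadm 58.99 against 39.9 CPM and Scp2 173 against 132 CPM, and 1 of 6 members (Aldh2) was lower by that fold, against 5.71% of genes. No member was higher by that fold, in all suprabasal cells (2% of genes) or without those cells (2.15%). With TMM factors the ratio of Acadm was 0.671, also short of that fold. With a mitochondrial limit of 5% the intervals of Aldh2 were still apart, and those of Scp2 (153 to 182 against 113 to 161 CPM) and Acadm (51.2 to 68.7 against 31.3 to 58.7 CPM) overlapped. In fibroblasts the sum was 673 and 674 CPM, and 0 of 10 members was lower or higher by that fold, against 4.94% and 7.85% of genes.

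**Figure D5:**
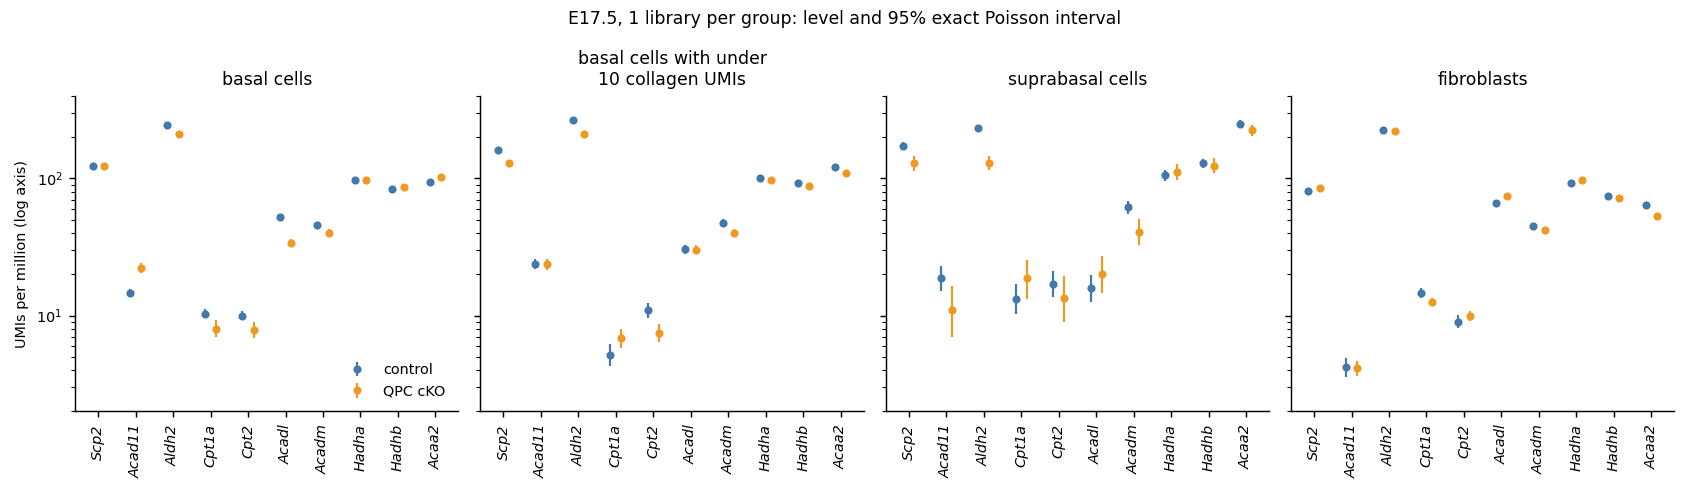
Members (x axes) at E17.5 in CPM on a log axis (y axis) in the 1 control and the 1 QPC cKO library; bars are 95% exact Poisson intervals. Acadl and Acad11 have intervals that are apart in all basal cells and that overlap in basal cells with under 10 collagen UMIs, and Aldh2, Scp2 and Acadm have intervals that are apart in suprabasal cells.

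Over the 30 sums (10 libraries in 3 compartments), with log2(CPM + 1) centred within each stage, the pair of members most alike was Scp2 and Acadm, with a Pearson r of 0.907. Hadhb and Acaa2 followed at 0.818, and the least alike were Acad11 and Acadl at -0.633. Sums of 1 library share its depth and free RNA, so r is given as a description. Among 5761 genes the one most like each member was Serpinb3c for Acaa2 (r = 0.970), Celsr1 for Acad11 (0.962), Fam172a for Aldh2 (0.956), 0610009B22Rik for Scp2 (0.945), Dpp3 for Hadhb (0.927), Scp2 for Acadm (0.907), Ctsb for Acadl (0.899), Derl2 for Cpt2 (0.887), Ebp for Hadha (0.843) and Sepw1 for Cpt1a (0.828). Celsr1 encodes an epithelial planar polarity cadherin and Ctsb the lysosomal protease cathepsin B. Hadha and Hadhb, which share the start region printed above, had an r of 0.448 with each other. Each had a closer match among the 5761 genes, but a search that wide favours a closer match than 1 set partner. No conclusion about the shared start is drawn from it.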

How the data were processed

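Droplet single-cell 3′ libraries of embryonic back skin gave, for each of 10 samples, a matrix of whole UMI counts per gene and cell, which the authors made with Cell Ranger (versions 1.3.1 and 6.1.2 in the submitters' processing notes, mm10) and deposited unnormalised. Cells with more than 1000 and fewer than 6000 genes and under 10% mitochondrial UMIs were kept. No doublet caller was run, and doublets were read only through keratinocytes with 10 or more collagen UMIs. UMIs were summed per library and compartment and tested with edgeR 4.0.16 (R 4.3.3; filterByExpr, TMM, quasi-likelihood test, Benjamini-Hochberg adjustment over all genes, threshold 0.05), with DESeq2 1.42.0 as an alternative. Controls were compared between compartments with the library as a block. Tests were also run on simulated counts with planted changes and a single fixed spread for all genes. That setting is simpler than these sums of few cells with a mosaic sample, so no result here rests on it. Sums, intervals and figures used Python 3.11.15, pandas 2.3.3, scipy 1.17.1 and matplotlib 3.10.9. Poisson intervals and the limit of 3 UMIs cover counting error only.

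The named-gene rule took all 10 members, Kat8 and Uqcrq, genes starting within 1000 bases of a member on the other strand, up to 4 called genes of each list in the both-stage comparisons with at least 20 CPM (there were none), and the gene most like each member. A result that this rule would name is not reported here. Members and lists were chosen with earlier results of these data known, and the study itself singled out Aldh2 and Scp2 in this model, so neither is independent evidence. Alternatives were library sizes alone, no filter on low counts, a mitochondrial limit of 5%, doubled compartment minimums, leaving out keratinocytes with 10 or more collagen UMIs, leaving out each library, and a replicate block at E16.5.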

Additional observations from a re-analysis of the deposited data

Results flagged for a closer look

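In suprabasal cells Acaa2 of MOF cKO stood at 120.8% of the control mean at E15.5, with both samples above both controls, and at 60.2% at E16.5, with both below. The stage by genotype interaction was -0.64 ± 0.55 (SE) on the log2 scale and was not called (edgeR adjusted p = 0.653). The 10 members summed stood at 108% of the control mean in suprabasal cells at E15.5 and at 59.3% at E16.5, and at E15.5 they stood at 76.4% in basal cells. Cpt2 at E15.5 stood at 84.0% in suprabasal cells and at 112% in fibroblasts. In each pair every MOF cKO sample lay on one side of both controls in the first group. In the second group every MOF cKO sample lay on the other side. Apart from Acaa2 the differences were not tested. In suprabasal cells 16.7% of genes lay above both controls at E15.5 and 49.6% below at E16.5. The share of genes that lie on opposite sides in this way was not counted, so these results have no background.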

How the results depend on the processing

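Among the 10 members, the main tests called 0 between MOF cKO and control in each compartment. DESeq2 called 1 in suprabasal cells at E15.5, 2 in basal cells at E16.5, and 1 each in basal and suprabasal cells over both stages. Without the filter on low counts edgeR called 1 in suprabasal cells at E15.5 and 2 each in basal cells at E16.5, suprabasal cells at E16.5, basal cells over both stages and suprabasal cells over both stages. Doubled minimums gave 2 in basal cells at E16.5 and 8 rather than 5 between suprabasal and basal control cells (7 higher, Acad11 lower), where leaving out collagen-bearing keratinocytes gave 7. Library sizes alone gave 2 in suprabasal cells at E16.5, and leaving out collagen-bearing keratinocytes gave 2 there and 1 over both stages. Where no share of all genes is given for a setting, as for DESeq2, the unfiltered fits and library sizes alone, its count has no background. Leaving out 1 library gave 0 to 7 in basal and 0 to 4 in suprabasal cells at E15.5, 0 to 2 over both stages in each, and 0 to 3 for basal against fibroblast effects, with every upper value coming without MOF cKO replicate 6. At E16.5 it gave 0 to 1 in basal cells (Scp2, without control replicate 2) and 0 to 1 in suprabasal cells (Acadl, without control replicate 1). The E17.5 ratio of the summed members in basal cells was 0.976 with a mitochondrial limit of 5%, 0.847 with doubled minimums and 0.861 without collagen-bearing cells, and in fibroblasts 0.953 with TMM factors.

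Uncalled log2 changes that turned sign were these. In basal cells at E15.5, leaving out 1 library gave -0.88 to 0.032 for Acad11, -0.14 to 0.97 for Acadl, -0.16 to 0.0091 for Acaa2 and -0.12 to 0.18 for Hadhb, which was also -0.085 with library sizes alone and -0.051 with a mitochondrial limit of 5%. In basal cells at E16.5, Acad11 was -0.19 with library sizes alone, -0.042 with doubled minimums and -0.97 without collagen-bearing cells, Acadl was -0.11 with library sizes alone and -0.11 with a 5% mitochondrial limit (-0.0023 to 1.1196 leaving out 1 library, lowest without control replicate 2), and Hadha was 0.049 without collagen-bearing cells. Between suprabasal and basal control cells Acadl was 0.23 with doubled minimums, 0.034 without collagen-bearing cells and -0.57 to 0.22 leaving out 1 library, highest without the E17.5 control. The cause was not tested. At E16.5 same-numbered samples did not deviate together (correlations -0.08, -0.04 and -0.02 in basal, suprabasal and fibroblast cells), and with the replicate block 0 members were called in each. Depth limits E16.5 most, where Cpt1a and Cpt2 rested on 0 or 1 UMI in basal cells of MOF cKO.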
